A study of Homo sapiens with 4 samples.

Results

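In HA-SOX4 chromatin immunoprecipitations from U251 glioblastoma cells, 143 sites carried a peak in exactly 2 of the 3 immunoprecipitations. They were chosen by the deposited peak calls themselves. Overlaps of 1 bp or more joined all peaks of the 3 lists into 862 regions. Those with peaks of exactly 2 lists were kept (159), and the 16 of them that overlapped a window on chromosome 6 from 26.2 to 29 Mb (hg19) were left out. The remaining 143 regions held 287 of the 1558 peaks. Outside the same chromosome 6 window lay 210 regions with a peak of every immunoprecipitation and 427 with a peak of only 1, so the sites of 2 lists made up 143 of 780 regions.

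SOX4 belongs to the HMG-box family of transcription factors, which bind in the minor groove of DNA and bend it. It is known from neural and other progenitor cells and is often abundant in tumours, glioblastoma among them. By its title, the series is about tRNA genes that SOX4 represses. Such genes are short, are transcribed by RNA polymerase III from promoter elements inside the gene, and often sit close together in groups.

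The study used 4 samples, all from U251, an established human glioblastoma line, after virus-borne overexpression of HA-tagged SOX4, and all taken 3 days after infection. Anti-HA antibody was used for 3 immunoprecipitations, called IP 1, IP 2 and IP 3, and 1 input was made from chromatin that was not precipitated. The immunoprecipitations are labelled as independent ones. Separate cultures or infections are not named, and an immunoprecipitation from cells without HA-SOX4 was not analysed here. Tags after removal of duplicates numbered 24037735 in IP 1, 23683012 in IP 2, 19228143 in IP 3 and 28755427 in the input, and the lists held 627, 524 and 407 peaks. An hg19 annotation and genome sequence were not used here, so each site is named by its position and none is placed in a gene, exon or intron.

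Because presence in a list chose the sites, their pileup, fold and q values describe them and were put to no test. The pileup is the height of extended reads at the peak summit. Fold enrichment, as the authors give it, divides that height by the local input background. The −log10 q is the authors' adjusted Poisson value at the summit.

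Most of the sites lacked a peak in IP 3, the library with the fewest tags. IP 1 and IP 2 shared 82 of the 143 sites (57.3%, exact 95% interval 48.8% to 65.6%). IP 1 and IP 3 shared 37 (25.9%, 18.9% to 33.9%), and IP 2 and IP 3 shared 24 (16.8%, 11.1% to 23.9%). Intervals here and below cover counting error only. Seen from the other side, 292 regions outside the window had peaks in both IP 1 and IP 2, and 71.9% of them (66.4% to 77.0%) also had one in IP 3. Of the 247 regions with peaks in IP 1 and IP 3, 85.0% (79.9% to 89.2%) had one in IP 2. Of the 234 with peaks in IP 2 and IP 3, 89.7% (85.1% to 93.3%) had one in IP 1. The 143 sites took up 120 peaks of IP 1 (19.1% of its list), 106 of IP 2 (20.2%) and 61 of IP 3 (14.99%).

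By the rule that joined them, the peaks of a site had to overlap, which also limits the distance between their summits. The sites were 169 to 489 bp wide with a median of 243 bp, and the peaks of the 2 lists overlapped by 78 bp at the least and 165 bp at the median. Their summits were 29 bp apart at the median, and in 97 of 143 sites at most 50 bp apart. The median summit distance was 33 bp for IP 1 and IP 2, 22 bp for IP 1 and IP 3 and 28.5 bp for IP 2 and IP 3. In regions of all 3 lists the same pairs of summits were 21.5, 21 and 25 bp apart. The widest summit distances were 194 bp at chr6:23634354-23634612, 183 bp at chr5:149829527-149829818 and 177 bp at chr9:97854737-97855074. Each of these 3 weak sites was called in IP 1 and IP 2, with mean folds of 5.01, 4.89 and 4.95. A single site held 3 peaks, namely chr4:113435888-113436335 of IP 1 and IP 2, where the stronger peaks had pileups of 18 and 16 reads and folds of 7.65 and 7.07.

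The sites stood between regions of 1 list and regions of all 3 in signal. In IP 1 the median fold was 6.03 at their 120 peaks, against 5.28 at peaks found in IP 1 alone and 8.37 at peaks of regions of all 3 lists. In IP 2 the medians were 5.84, 5.28 and 8.35, and in IP 3 they were 5.98, 5.53 and 7.58. Median pileups of the sites were 21, 19 and 19 reads in the order IP 1, IP 2, IP 3. In regions of all 3 lists it was 33, 30 and 26 reads, and in regions of 1 list it was 17 in each. Pileups at the sites ran from 12 to 44 reads in IP 1, from 13 to 41 in IP 2 and from 12 to 29 in IP 3. The local input background at the sites had medians of 1.73, 1.82 and 1.64 times the genome average in the same order. It was higher in regions of all 3 lists (1.97, 1.88 and 2.098) and equal or lower in regions of 1 list (1.73, 1.78 and 1.57), and its part in the class differences was not tested.

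**Figure D1:**
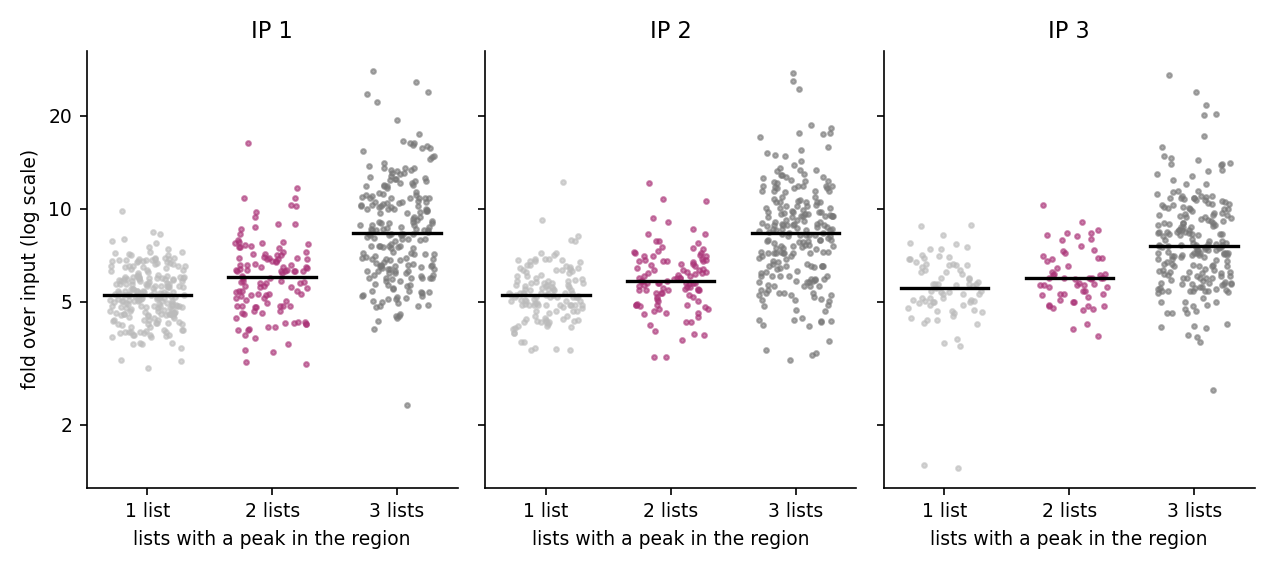
Fold enrichment over input (log scale) of every peak outside the chromosome 6 window, by immunoprecipitation and by the number of lists with a peak in the region; black bars are medians and each point is 1 peak. Peaks of 2-list regions centre on 6.03, 5.84 and 5.98 in IP 1, IP 2 and IP 3, between the other classes, and the classes overlap in part.

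High folds were few among the sites. A fold of 8 or more was reached by 13 of 120 site peaks in IP 1 (10.8%), while 28.4% of all IP 1 peaks reached it. The count was 8 of 106 in IP 2 (7.55%) beside 31.5% of all peaks, and 7 of 61 in IP 3 (11.5%) beside 31.9%. Since the choice of sites rests on the same calls, nothing is read from these differences. Among the top 25% of each list by fold were 12, 5 and 2 site peaks of IP 1, IP 2 and IP 3. Among the lowest 25% were 36, 30 and 22. Site peaks made up 7.69%, 3.79% and 1.98% of that top 25%, and 22.9%, 23.3% and 21.8% of the lowest. Their shares of the whole lists were 19.1%, 20.2% and 14.99%. Averaged over the 2 lists of a site, the fold had a median of 6.02, quartiles of 5.19 and 6.88, and extremes of 3.63 and 13.5. The classes overlapped only in part, and 10 of the 143 sites had a mean fold at or above 8.12, the median of regions of all 3 lists. Conversely, 39 of those 210 regions lay below the median of the sites.

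The strongest site was chr17:37310627-37310935. It had 43 reads and a fold of 16.3 in IP 1, and 29 reads and a fold of 10.8 in IP 2, and ranked 12 of 627 and 63 of 524 by fold in these lists. IP 3 had no peak in it, although IP 3 did have one of 30 reads and fold 8.44 in a region of all 3 lists only 430 bp away. That neighbour, chr17:37309874-37310196, had a mean fold of 8.12 ± 1.46 (SD, n = 3), less than the site.

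Second was chr7:21963311-21963540, a site of IP 1 and IP 2. Its pileups were 38 reads in IP 1 and 41 in IP 2, with folds of 10.9 and 12.1 and summits 3 bp apart. The nearest peak of IP 3 lay 11.6 Mb away. The third was chr11:59319057-59319404 at 27 reads in IP 2 and 23 in IP 3. Its folds of 10.6 and 10.3 were almost equal, and IP 1 had no peak in it.

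The next sites had mean folds of 8.13 to 9.46. At chr9:99106798-99106993 the pileups were 29 reads in IP 1 and 23 in IP 2, with folds of 10.3 and 8.61. At chr14:21078210-21078443 they were 44 and 25 reads (folds 11.7 and 7.06), the highest pileup of any site in IP 1. At chr11:106911484-106911731 they were 37 and 26 reads (folds 10.8 and 7.78). These were sites of IP 1 and IP 2, as were the last 3 of the top 10. The last 3 were chr14:23398809-23399115 with folds of 8.29 and 9.10, chr11:66115531-66115774 with 9.73 and 6.80, and chr2:219264454-219264634 with 8.75 and 7.52. The only site of IP 1 and IP 3 in the top 10 was chr1:16872385-16872598, with 24 and 18 reads and folds of 10.2 and 8.35. Its background equalled the genome average, the lowest value the caller allows, in both lists.

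Behind chr1:16872385-16872598, the leading sites of IP 1 and IP 3 were chr19:956812-957010 (18 and 19 reads, folds 7.11 and 8.56) and chr12:49626729-49626994 (30 and 29 reads, folds 7.14 and 8.16). The leading sites of IP 2 and IP 3 behind chr11:59319057-59319404 were chr1:167156065-167156325 (16 and 19 reads, folds 6.85 and 8.37) and chr12:55451349-55451644 (25 and 21 reads, folds 7.49 and 7.32). By pair, the median of the mean folds was 6.01 for IP 1 and IP 2, 5.99 for IP 1 and IP 3 and 6.13 for IP 2 and IP 3. The pairs were therefore near each other in strength, although their numbers of sites were not.

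The folds of the 2 lists were within a factor of 1.2 in 79 of 143 sites and more than 1.5 times apart in 13. Their ratio, larger over smaller, had a median of 1.18. IP 1 was the higher in 48 of the 82 sites it shared with IP 2 and in 16 of the 37 it shared with IP 3, and IP 2 was the higher in 14 of 24 shared with IP 3. Across sites, Spearman's rho of the folds was 0.53 for IP 1 and IP 2 (n = 82), 0.53 for IP 1 and IP 3 (n = 37) and 0.04 for IP 2 and IP 3 (n = 24). In the 210 regions of all 3 lists it was 0.70, 0.73 and 0.68. These values describe sites of the same libraries, which share the input in their denominators, and the sites span a narrower range of folds.

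**Figure D2:**
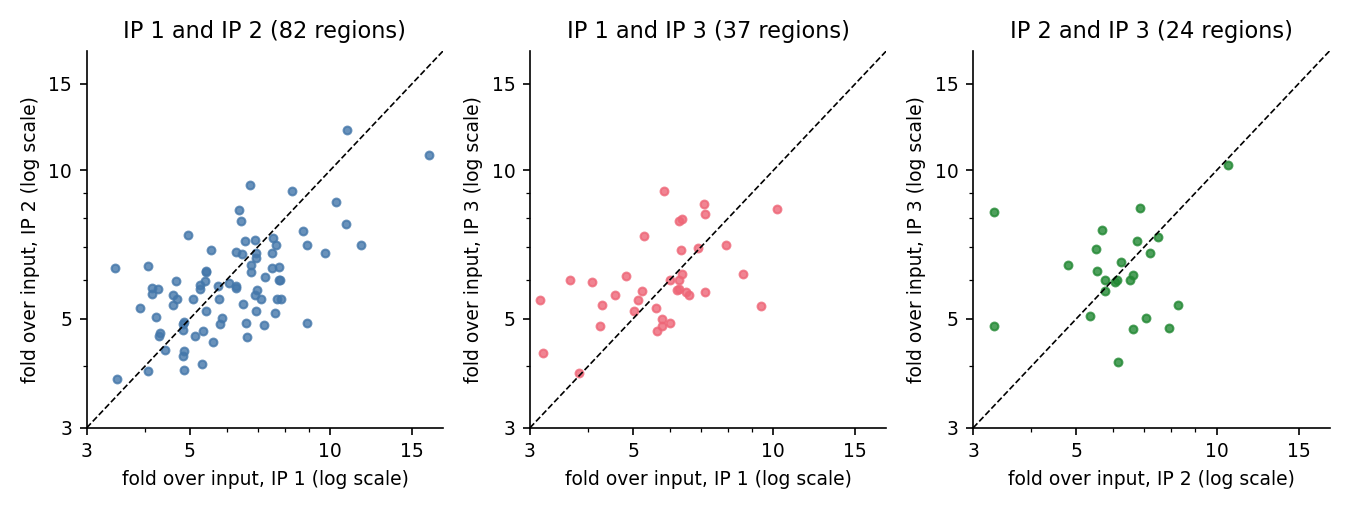
Fold enrichment over input in the 2 immunoprecipitations that called each site (both axes log scale; 1 point per site; dashed line, equal folds). Spearman's rho was 0.53 in the 82 sites of IP 1 and IP 2 and 0.53 in the 37 of IP 1 and IP 3. In the 24 of IP 2 and IP 3 it was 0.04. Regions of all 3 lists gave 0.70, 0.73 and 0.68, and the pairs were not compared by a test.

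The least even site was chr16:2032156-2032393, with 16 reads and a fold of 3.32 in IP 2 against 21 reads and 8.22 in IP 3, a ratio of 2.48. There the local background was 3.03 times the genome average in IP 2 and 1.31 times in IP 3, although both calls used the same input. At chr5:59064505-59064698 the folds were 3.45 in IP 1 and 6.34 in IP 2, and at chr8:74082703-74083154 they were 8.94 and 4.90. At chr1:153538934-153539320 they were 9.40 in IP 1 and 5.30 in IP 3, and at chr7:36221302-36221600 they were 3.16 and 5.44. The highest background of any site, and the only one over 5 times the genome average, was at chr15:49913101-49913444. It was 7.49 times the average in IP 1 and 4.20 times in IP 3, under pileups of 37 and 26 reads and folds of 3.20 and 4.25.

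A few sites lay just inside the threshold of the calls. In 4 of them the weaker −log10 q was under 2, and in 10 of the 143 it was under 3. Of the 210 regions of all 3 lists, 6 had a lowest −log10 q under 3. The lowest at a site was 1.55, in IP 1 at chr5:59064505-59064698. It was 1.603 in IP 2 both at chr16:2032156-2032393 and at chr20:25130586-25130806, 1.72 in IP 1 at chr7:36221302-36221600 and 2.40 in IP 3 at chr1:203830604-203830827. At the last of these the pileups were 16 reads in IP 2 and 14 in IP 3. At the other end, in a count not made for other regions, both lists of 15 sites reached a −log10 q of 10. Outside the sites already given, these included chr1:110026623-110026956 (31 and 25 reads in IP 1 and IP 2, folds 8.92 and 7.06), chr3:4345233-4345465 (24 and 23 reads in IP 1 and IP 2, folds 7.54 and 7.28) and chr7:141437994-141438205 (28 and 26 reads in IP 2 and IP 3, folds 6.75 and 7.19). Just outside the choice, the region of all 3 lists with the lowest −log10 q in any list was chr2:232573006-232573342, at 1.56. The nearest single-list regions of different lists that failed to meet were chr17:57920678-57920918 of IP 2 and chr17:57921080-57921421 of IP 1, which lay 161 bp apart with folds of 4.95 and 5.42. On chromosome 6, the closest sites outside the window were chr6:23634354-23634612 below it and chr6:29730591-29730842 above it. The first and last 2-list regions inside the window were chr6:26322707-26323172 and chr6:28918765-28918964, with mean folds of 5.41 and 8.27.

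How high the missing list could have been was worked out from its own calls. For each site the pileups of the 2 lists were scaled to the third by tags times extension length and averaged, and the background was carried over in the same way. Every one of the 143 scaled pileups would have reached the lowest −log10 p found in the third list, namely 5.61 for IP 1, 5.68 for IP 2 and 6.14 for IP 3. The count was 138 when scaled by tags alone and 142 with the lower of the 2 pileups. Sites were picked for high values in 2 lists, so their scaled pileups run high. A peak must also be at least as wide as the extension length, and this was not part of the calculation.

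The highest pileup that would still have fallen short of a call was then set against the scaled pileup. Where IP 3 lacked the peak, the scaled pileup had a median of 18.3 reads and the highest pileup short of a call a median of 12. Taken site by site, the limit was 65.3% of the scaled value at the median (range 30.8% to 87.0%). Where IP 2 lacked it, the medians were 19.7 and 12 reads, and the median percentage was 58.2% (38.4% to 80.8%). Where IP 1 lacked it, they were 19.9 and 11 reads, and the median percentage was 55.3% (32.7% to 75.3%). In 22 of the 143 sites a pileup short of a call meant less than 50% of the scaled value.

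The same scaling was applied to the 210 regions of all 3 lists, where the third pileup is known. It was 103% of the scaled value at the median in IP 1 (lowest 61.4%), 100.0% in IP 2 (lowest 55.6%) and 94.7% in IP 3 (lowest 59.4%). These regions had to be called in every list, so their lowest values are bounded by the calls.

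The limits for single sites hold only for the carried-over background and leave peak width aside. At chr17:37310627-37310935 the scaled value for IP 3 was 32.5 reads, and by this calculation at most 10 reads (30.8%) would have gone without a call. At chr11:59319057-59319404 the values for IP 1 were 27.5 and 9 reads (32.7%), and at chr7:21963311-21963540 those for IP 3 were 35.9 and 12 reads (33.4%). At chr1:16872385-16872598 the limit for IP 2 was 8 reads, 38.4% of the scaled 20.8. At the weak end the limit was close to the scaled value. At chr6:23634354-23634612 it was 11 of 13.2 reads, or 83.5%. Neither counting error nor differences between the immunoprecipitations was tested as the source of a missing peak.

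**Figure D3:**
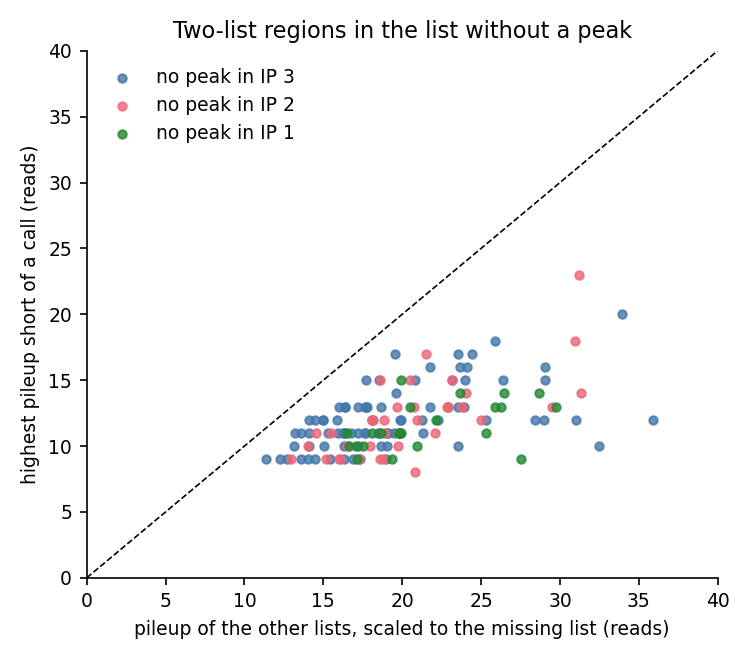
For each site, the pileup of its 2 lists scaled to the list without a peak (x axis, reads) and the highest pileup that would have stayed short of a call there (y axis, reads), coloured by the missing list; dashed line, equal values. Backgrounds were carried over from the 2 lists that called the site. All 143 points lie under the line, and the 3 strongest sites lie at 9 to 12 reads against scaled pileups of 27.5 to 35.9. Sites were picked for high values in 2 lists, so scaled pileups run high, and the source of a missing peak was not tested.

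The sites were spread over 22 chromosomes, and chromosome 1 held the most. It had 27 of 143 (18.9%, exact 95% interval 12.8% to 26.3%), near its share of all 780 regions (135, or 17.3%). With IP 1 left out, 12.5% of the 24 sites that remain were on it. It was followed by chromosome 17 with 13, chromosome 7 with 10 and chromosomes 12 and 20 with 8 each. Chromosome 18 had none, and it had no region of all 3 lists either. Chromosome 17 held 9.09% of the sites, 13.8% of the regions of all 3 lists and 8.72% of all 780 regions. For chromosome 16 these shares were 2.80%, 6.19% and 3.46%. IP 1 and IP 2 held 57.3% of all sites. They held 10 of the 13 on chromosome 17 and 6 of the 7 on chromosome 5. IP 2 and IP 3 held 16.8% of all sites. Theirs were 3 of the 8 on chromosome 12 and 3 of the 7 on chromosome 15. Counts this small leave wide intervals and were not compared by a test.

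The 27 sites on chromosome 1 included weak and strong ones. Their mean folds ran from 3.85 at chr1:151033720-151033928 to 9.28 at chr1:16872385-16872598, and 15 were of IP 1 and IP 2, 9 of IP 1 and IP 3 and 3 of IP 2 and IP 3. Next to a group of 3 regions of all 3 lists stood chr1:145395278-145395677, with 35 reads in IP 1 and 28 in IP 3 and folds of 7.92 and 7.05. At chr1:149680170-149680354, 3695 bp from a region of all 3 lists, the pileups were 17 reads in IP 1 and 21 in IP 2 and the folds 6.74 and 9.32. At chr1:161397807-161398004, 5.75 kb from one, they were 26 and 21 reads, with folds of 7.82 and 5.98 in the same lists. Chromosome 7 held both the second strongest site of all and the weakest. The weakest, chr7:3312455-3312651, had a mean fold of 3.63, from 21 reads in IP 1 and 22 in IP 2.

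Chromosome 20 had 8 sites (5.59%, exact 95% interval 2.45% to 10.7%) and 2 regions of all 3 lists (0.95%). It also had 15 regions of 1 list (3.51%), and it held 25 of all 780 regions (3.21%), both shares within the interval of the sites. Its sites were moderate, with mean folds of 4.08 to 7.06. The highest was chr20:3748864-3749120 with 20 reads in IP 1 and 21 in IP 2, and folds of 6.90 and 7.23. Next came chr20:62152410-62152617 with folds of 7.504 and 6.33 in the same lists, and chr20:20473227-20473437 with 6.88 in IP 1 and 6.94 in IP 3. All 3 pairs were present there (4, 3 and 1 sites). This chromosome was singled out after its counts had been seen.

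**Figure D4:**
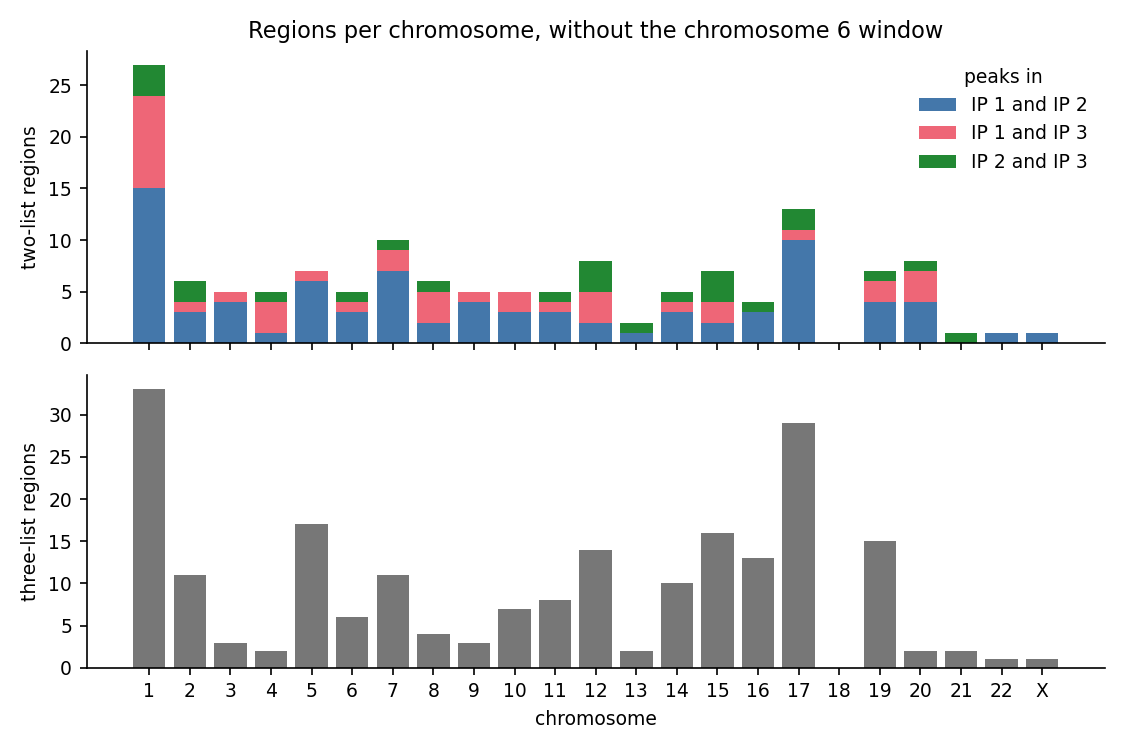
Number of 2-list regions per chromosome, stacked by the pair of immunoprecipitations that called them (top), and number of 3-list regions (bottom), both without the chromosome 6 window. Chromosome 1 leads both panels with 27 and 33 regions, and chromosome 20 has 8 above and 2 below.

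The number of sites per chromosome was set beside the number of nuclear tRNA genes and of protein-coding genes in the RefSeq table of GRCh38, of which only gene counts were used. Over 22 chromosomes, leaving out chromosome 6 because its window was removed, the sites had a Spearman's rho of 0.56 with tRNA genes and 0.59 with protein-coding genes. Regions of all 3 lists gave 0.85 and 0.68 over the same chromosomes, and regions of 1 list gave 0.47 and 0.68. Pearson's r of the sites with tRNA genes was 0.89, and 0.61 without chromosome 1, which has 98 tRNA genes and 27 sites. Chromosome 20, with 8 sites, has 0 tRNA genes in the table, while chromosome 16, with 26 of them, had 4 sites. Chromosomes differ in size and in many other ways, so these values are descriptions, and the classes were not compared by a test.

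Most sites, like most regions of 1 list, lay far from any region of all 3 lists. The distance from a site's edge to the nearest such region had a median of 2.69 Mb, and exceeded 1 Mb in 100 of 143 sites and 10 Mb in 38. Regions of 1 list had a median of 5.84 Mb, and regions of all 3 lists lay 0.60 Mb from the next of their kind. The distance exceeded 1 Mb in 303 of 427 regions of 1 list and in 93 of 210 regions of all 3. It exceeded 10 Mb in 135 and 25 of them, and a further 10 and 2 had no such region on their chromosome. Within 50 kb of a region of all 3 lists were 20 sites (13.99%, exact 95% interval 8.76% to 20.8%). Over all 780 regions outside the window the share was 15.3%, made up of 5.85% of regions of 1 list and 35.2% of regions of all 3. The share of the sites moved with the processing. It was 8.70% when peaks up to 500 bp apart were joined and 22.01% with the chromosome 6 window kept. Among the 24 sites of IP 2 and IP 3, the only ones left without IP 1, it was 8.33%. Within 1 kb lay 9 sites (6.29%, 2.92% to 11.6%), against 1.41% of regions of 1 list and 19.0% of regions of all 3. By pair, 13 of 82, 5 of 37 and 2 of 24 sites lay within 50 kb.

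**Figure D5:**
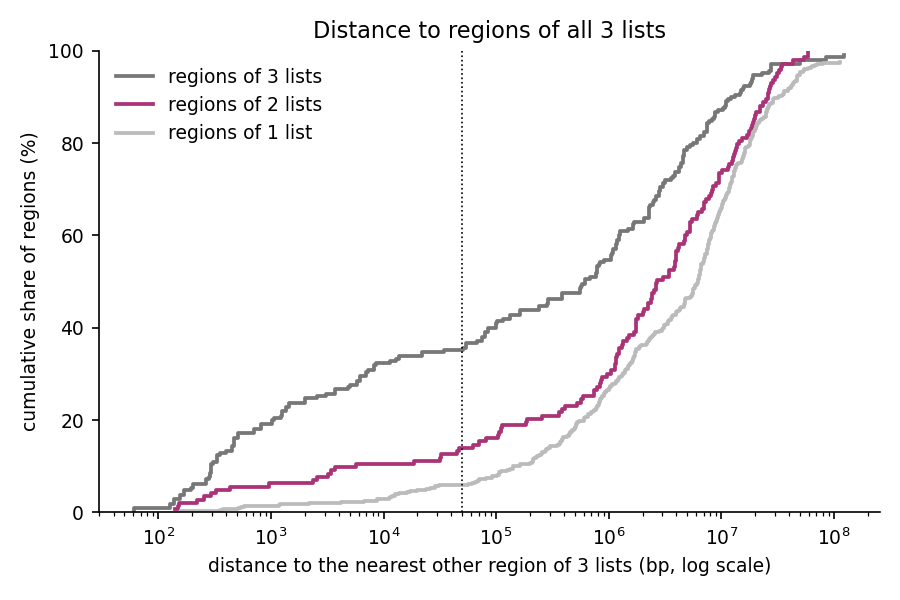
Cumulative share of regions (y axis, %) by distance to the nearest other region of 3 lists (x axis, bp, log scale) for regions of 3, 2 and 1 lists outside the chromosome 6 window; the dotted line marks 50 kb. The curve of the 2-list regions runs between the others, at 13.99% by 50 kb against 35.2% and 5.85%.

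Of the 20 sites within 50 kb, 12 lay by a lone region of all 3 lists, 5 by a group of 2 to 4 and 3 by a group of 5 or more, with regions at most 50 kb apart counted as a group. The median of their mean folds was 6.74 (range 4.64 to 13.5), and 16 of the 20 were lower than the nearest region of all 3 lists. Lower folds were general to the sites, since 10 of all 143 reached 8.12, the median of regions of all 3 lists. The 123 sites farther away had a median of 5.97.

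Closest of all was chr1:249168391-249168620, which lay 142 bp from chr1:249167964-249168248. The site had 27 and 31 reads in IP 1 and IP 2 and folds of 5.41 and 6.25, and the neighbour had a mean fold of 8.01 ± 1.29 (SD, n = 3). The site chr5:180648908-180649158 lay inside a group of 9 regions on chromosome 5, 149 bp from the nearest of them, with 28 and 29 reads and folds of 4.23 and 5.05 in IP 1 and IP 2. Its neighbour reached 7.91 ± 1.00-fold (SD, n = 3). On chromosome 11, chr11:59319057-59319404 lay 152 bp from a region of 12.2 ± 2.31-fold, in which IP 1 had 35 reads and a fold of 14.7, although IP 1 had no peak in the site itself. In the same group of 4 regions lay chr11:59327730-59327962 of IP 1 and IP 3, with 22 and 13 reads and folds of 8.61 and 6.15.

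Also next to regions of all 3 lists were chr2:70475564-70475785, at 220 bp, and chr12:125411736-125412031, at 255 bp. The first had 21 reads in IP 1 and 25 in IP 3 (folds 3.66 and 5.99), beside a region of 7.60 ± 1.67-fold (SD, n = 3). The second had 25 reads in IP 2 and 23 in IP 3 (folds 7.88 and 4.79), beside a region of 11.2 ± 1.92-fold (SD, n = 3). On chromosome 17, 2 sites of IP 1 and IP 2 lay inside a group of 13 regions between 8022397 and 8130516. They were chr17:8024167-8024416, with 29 and 24 reads, and chr17:8042733-8042962, with 33 and 31 reads, at 323 and 295 bp from the nearest region. The folds were 5.79 and 4.88 at the first and 6.56 and 7.20 at the second.

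In 10 sites the list that lacked a peak had one within 1 kb, and in 8 of these that peak belonged to a neighbouring region of all 3 lists. The other two formed a pair on chromosome 1 that was 501 bp apart. IP 1 had a peak in both, at 33 reads and a fold of 4.96 in chr1:153643665-153643856 and at 15 reads and 5.83 in chr1:153644358-153644589. IP 2 had a peak only in the first (31 reads, fold 7.41) and IP 3 only in the second (22 reads, fold 9.08). Joined, they would form a region of all 3 lists. The count of 10 was not set beside a share over all regions, so it is a description only.

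Another site lay within 50 kb of 10 of the 143 sites, in 5 pairs of neighbours. Of these pairs, 4 joined sites of different lists. No such share was worked out over all 780 regions, so the count is a description only. On chromosome 8, chr8:8174649-8174992 of IP 2 and IP 3 and chr8:8193998-8194321 of IP 1 and IP 2 lay 19.0 kb apart. Both were among the 3 sites farthest from any region of all 3 lists, at 58.9 and 58.8 Mb. The third was chr8:12834279-12834767 of IP 1 and IP 3, at 54.2 Mb. Mean folds of these 3 were 6.04, 6.89 and 6.08, near the median of all sites. On chromosome 1, chr1:17222555-17222809 of IP 1 and IP 3 (mean fold 5.37) and chr1:17231693-17231894 of IP 1 and IP 2 (4.51) lay 8.88 kb apart.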

How the data were processed

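The submitters' processing notes list Bowtie2 2.3.3.1 and Picard 2.10 beside the hg19 build, and bcl2fastq 2.20 and HOMER 4.9.1. They also list MACS2 2.1.1.20160309. Per the file headers, each immunoprecipitation was called separately against the 1 input with no model, an extension of 163, 155 or 179 bp (IP 1, IP 2, IP 3) and a q threshold of 0.05. How multiply mapping reads were handled, which can misplace or lose peaks at near-identical copies, is not stated in the sources used here. The deposited pileup is a signal in reads, the deposited fold enrichment a ratio by the authors, and p and q are deposited by the authors as −log10 values.

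Peaks were merged in Python 3.11.15 with pandas 2.3.3 and scipy 1.17.1. Merging was checked on simulated lists. Where a region held several peaks of 1 list, the one with the highest fold was used. The background was recovered as (pileup + 1) / fold − 1, and its Poisson tail matched the deposited −log10 p to within 0.000212. Intervals are exact Clopper-Pearson at 95%. Reads carried no molecular identifiers, so they are not all independent molecules.

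No hypothesis test was made, since the calls that chose the sites rest on the same values. The sites and rules were chosen with earlier results of these data known. Described one by one were 37 sites. They are the 10 with the highest mean fold, the top 3 of each pair, and the 5 of lowest q, of largest fold ratio, nearest the third list and nearest a region of all 3 lists. Also included are all with a third-list peak within 1 kb, the 3 farthest from regions of all 3 lists, the 3 with the widest summit distance, those with several peaks of 1 list and those with a background over 5 times the genome average. Further sites on chromosomes 1, 3, 7 and 20 and neighbouring sites were added after their values had been seen. Planned counts at gene starts were not run, since the gene table is on GRCh38.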

Additional observations from a re-analysis of the deposited data

How the results depend on the processing

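The number of sites stayed between 138 and 159 against 143 under a reciprocal overlap of 50%, joining of peaks up to 500 bp apart, a −log10 q of at least 2 or 3, and the chromosome 6 window kept. With 1 immunoprecipitation left out, the sites that rest on the other two numbered 24 without IP 1, 37 without IP 2 and 82 without IP 3, as the pair counts imply. Their median fold lay between 5.99 and 6.13, the share on chromosome 1 between 12.5% and 24.3%, and the share within 50 kb of a region of all 3 lists between 8.33% and 15.9%. That last share, 13.99%, was 8.70% when peaks up to 500 bp apart were joined, which absorbs the nearest sites, 22.01% with the chromosome 6 window kept, and 23.1% at 500 kb in place of 50 kb. The shares of the 3 pairs stayed within the intervals of the main values in each alternative that could give them; with 1 list left out only 1 pair is left. No paired analysis was possible because peak lists exist for the immunoprecipitations only. The alternative window around gene starts was not run. With the higher of the 2 backgrounds, an alternative added after seeing the data, the scaled pileup still passed in 143 of 143 sites. The lowest site peaks hold 12 or 13 reads, and whether depth accounts for a missing peak was not tested. A missing peak does not show that SOX4 was absent there.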

Other observations

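The 16 regions of 2 lists inside the chromosome 6 window, which are not among the 143, had a median mean fold of 7.42, against 6.02 for the sites outside it. Of these 16, 12 were of IP 1 and IP 2, 2 of IP 1 and IP 3 and 2 of IP 2 and IP 3. The window also held 53 regions of all 3 lists.

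The input background at the peaks of the 143 sites came from the window as long as 1 fragment in 43.3%, 37.7% and 44.3% of them in IP 1, IP 2 and IP 3, beside 41.3%, 42.7% and 46.2% over the whole lists. It equalled the genome average at 3, 3 and 2 site peaks.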
